A study of Homo sapiens with 6 samples.

Results

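RNA sequencing of LX-2 cells was examined for 10 genes, namely the matricellular genes CCN1, CCN2, CCN3 and CCN4, the genes ANKRD1, AMOTL1, AMOTL2 and LATS2 of the YAP pathway, and YAP1 and WWTR1, which encode the coactivators YAP and TAZ. They are 10 of the 33900 genes in the deposited table. The genes were chosen by name from the biology of the pathway, with the counts of the same rhSema3C and PBS samples already known, so their differences between the groups are a description. Whether a gene passed the threshold of the fit over all genes is stated, but no p-value is printed for these 10 and no support is drawn from it. LX-2 cells are an immortal human line derived from hepatic stellate cells, which produce collagen in injured liver, and the labels give them as wild type. In 1 group, 3 samples received recombinant human Sema3C (rhSema3C), a secreted semaphorin, at 300 ng/ml for 48 h. In the other, 3 samples received PBS for the same time, and all 6 were cultured in DMEM with serum and antibiotics. The labels call the samples biological replicates but do not say whether they were separate cultures, so the p-values measure the spread between these samples.

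YAP and TAZ are coactivators without a DNA-binding domain, and they act on genes through the TEAD transcription factors. The MST and LATS kinases of the Hippo pathway phosphorylate YAP and TAZ and hold them in the cytoplasm, whereas stiff matrix, cell spreading and actin tension favour their entry into the nucleus. CCN1, CCN2 and ANKRD1 are the most widely used readouts of YAP activity, and the products of AMOTL2 and LATS2 restrain YAP in turn. In stellate cells, YAP is known for its part in activation on stiff matrix, and CCN2, also called connective tissue growth factor, is a well-known profibrotic product.

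The letters GGAATG are the core of the site that TEAD factors bind, so RefSeq promoter windows of GRCh38.p14, from 250 bases before to 50 after each transcription start, were searched for them on both strands. Of the 10 genes, 7 had such a window, while CCN1, CCN3 and CCN4 had none and were not searched. In 5 of the 7 (CCN2, ANKRD1, AMOTL2, LATS2 and YAP1), a window held the letters at least once. Counted by window, 5 of the 9 windows of these genes held them. Of all 35116 windows, 14.0% held them at least once, 1.37% at least 2 times and 0.128% at least 3 times. The CCN2 window held 3 matches and the ANKRD1 window 2. The sequences of CCN2 and ANKRD1 are shown because they hold the most matches and because both genes were more than 2-fold lower with rhSema3C. They give the 250 bases before the start, at chr6:131951373-131951622 and chr10:90921088-90921337, both on the minus strand and read 5′ to 3′ toward the gene, with the matches in capitals.
CCN2: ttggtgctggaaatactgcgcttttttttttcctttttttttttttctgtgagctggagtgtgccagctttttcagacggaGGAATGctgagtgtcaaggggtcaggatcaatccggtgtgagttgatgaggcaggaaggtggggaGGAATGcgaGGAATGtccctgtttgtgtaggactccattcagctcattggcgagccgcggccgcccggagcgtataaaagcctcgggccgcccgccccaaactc
ANKRD1: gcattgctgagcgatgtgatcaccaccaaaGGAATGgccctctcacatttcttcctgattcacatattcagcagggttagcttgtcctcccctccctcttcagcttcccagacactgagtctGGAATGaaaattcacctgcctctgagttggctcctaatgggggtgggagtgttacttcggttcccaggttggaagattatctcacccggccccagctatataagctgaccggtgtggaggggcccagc

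Counted from the transcription start, the first bases of the CCN2 matches lay at -169, -104 and -95, and those of ANKRD1 at -220 and -128. The remaining matches are shown as 30 bases around the site, to set a gene that was lower with rhSema3C beside genes that were not. The AMOTL2 match lay on the opposite strand, where it reads as CATTCC, at chr3:134374499-134374528 before the second of its RefSeq starts. The LATS2 match lay just after the start at chr13:21061560-21061589, both of these genes being on the minus strand. The YAP1 match lay at chr11:102110273-102110302 on the plus strand.
AMOTL2: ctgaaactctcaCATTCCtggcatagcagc
LATS2: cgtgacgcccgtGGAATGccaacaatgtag
YAP1: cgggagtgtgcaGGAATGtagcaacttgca

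The letters were thus found before a RefSeq start of CCN2, ANKRD1 and AMOTL2, which were lower with rhSema3C by more than 2-fold. They were also found at YAP1 and LATS2, which were not lower by that much. CCN1, which was also lower by more than 2-fold, had no window to search. The windows of AMOTL1 and WWTR1 held no match, and neither did that of the first AMOTL2 start. The letters TGANTCA, the site of AP-1 factors, occurred in 1 of these windows, that of ANKRD1, at -195, and in 7.71% of all windows. A match is a run of letters and was not tested for binding. The RefSeq start equalled the start in the deposited table for CCN2, ANKRD1, LATS2 and YAP1. It lay 61925 bases away for AMOTL1 and 33441 or 78689 for the WWTR1 starts. For AMOTL2, the first RefSeq start lay 823 bases before the deposited start and the second 147 bases after it. The AMOTL2 match thus lies within the deposited bounds of the gene.

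**Figure D1:**
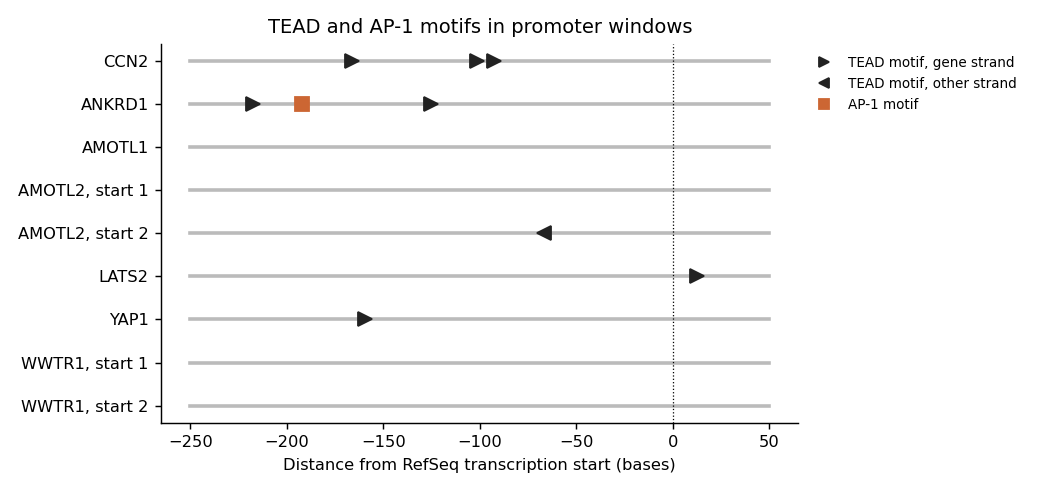
Positions of the TEAD letters GGAATG (triangles, pointing along the strand they lie on) and of the AP-1 letters TGANTCA (square) in the RefSeq promoter windows of 7 genes, as distance in bases from the transcription start (dotted line). CCN2 carries 3 triangles and ANKRD1 carries 2, all before the start.

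The total counts on genes ranged from 68267808 to 89245585 per sample, and replicates of a group differed by more than counting noise. Values below are CPM, counts relative to library size and TMM factors between 0.958 and 1.04, unless FPKM, which also accounts for transcript length, is named. Of 8 stellate cell markers, COL1A1, COL3A1, ACTA2, PDGFRB and VIM passed the filter of a mean FPKM of at least 0.5, and COL1A2, DES and LRAT did not. COL1A1 was lower with rhSema3C, at 917.2 ± 64.1 CPM with PBS and 534.6 ± 20.5 with rhSema3C (SD, n = 3 per group). Of 8 measured markers of other liver cells, 1 passed, the macrophage and lysosome gene CD68, at 93.4 FPKM with PBS and 66.9 with rhSema3C. PTPRC, which marks leukocytes, had mean values of 0.00414 and 0.00475 FPKM.

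CCN1 (ENSG00000142871, chr1:85580761-85583950) encodes a secreted matricellular protein that binds integrins. It had 638.6, 680.1 and 682.0 CPM in PBS replicates 1 to 3 and 298.6, 289.5 and 283.1 in rhSema3C replicates 1 to 3. Every rhSema3C sample lay below every PBS sample. The means were 666.9 ± 24.5 and 290.4 ± 7.82 CPM (SD, n = 3 per group). On the log2 scale this was -1.20 (standard error 0.04), or 2.30-fold lower. Since these are bulk samples, fewer cells that express a gene and less RNA per cell cannot be told apart, here and for the genes that follow.

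CCN2 (ENSG00000118523, chr6:131948176-131951372), the gene whose promoter window held 3 matches to the TEAD letters, showed the largest fold change between the groups among the 10 genes. Its values were 162.7, 168.0 and 170.9 CPM with PBS and 30.6, 32.4 and 32.0 with rhSema3C. The lowest PBS sample was thus far above the highest rhSema3C sample. The log2 fold change was -2.40 (standard error 0.05), or 5.28-fold lower, and 16 of the 14178 genes tested had a lower one. An unnamed gene that overlaps CCN2 on the other strand had at most 4 counts in any sample.

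CCN3 (ENSG00000136999, on chromosome 8 from 119416446 to 119424434), a family member that in other settings opposes CCN2, did not share this pattern. It had 26.9, 24.9 and 25.6 CPM with PBS and 32.8, 29.3 and 26.4 with rhSema3C. The third rhSema3C sample lay within the PBS range and the other two lay above it. The log2 fold change was 0.19 (standard error 0.08), short of an adjusted p of 0.05, and without rhSema3C replicate 3 it was 0.27 and passed.

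CCN4 (ENSG00000104415, on chromosome 8 from 133191039 to 133231690), a target of Wnt signalling, was close to undetected. Its counts were 26, 42 and 27 with PBS and 14, 0 and 12 with rhSema3C. At a mean of 0.0776 FPKM with PBS it was below the filter and was not tested. When no filter was applied, its log2 fold change was -2.11 (standard error 0.94) and missed the threshold. Neither remaining gene of the family passed the filter, since CCN5 had between 7 and 48 counts per sample and CCN6 had 10 in PBS replicate 1 and 0 in all others. CCN1, CCN2 and CCN3 were thus the CCN genes above the filter.

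ANKRD1 (ENSG00000148677, chr10:90912096-90921087) encodes an ankyrin repeat protein of muscle that is induced by YAP in many cell types. Its values were 173.3, 156.4 and 171.3 CPM with PBS and 58.6, 64.3 and 60.6 with rhSema3C. The groups were well apart, with PBS replicate 2 the lowest of the controls. The log2 fold change was -1.45 (standard error 0.05), or 2.73-fold lower.

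**Figure D2:**
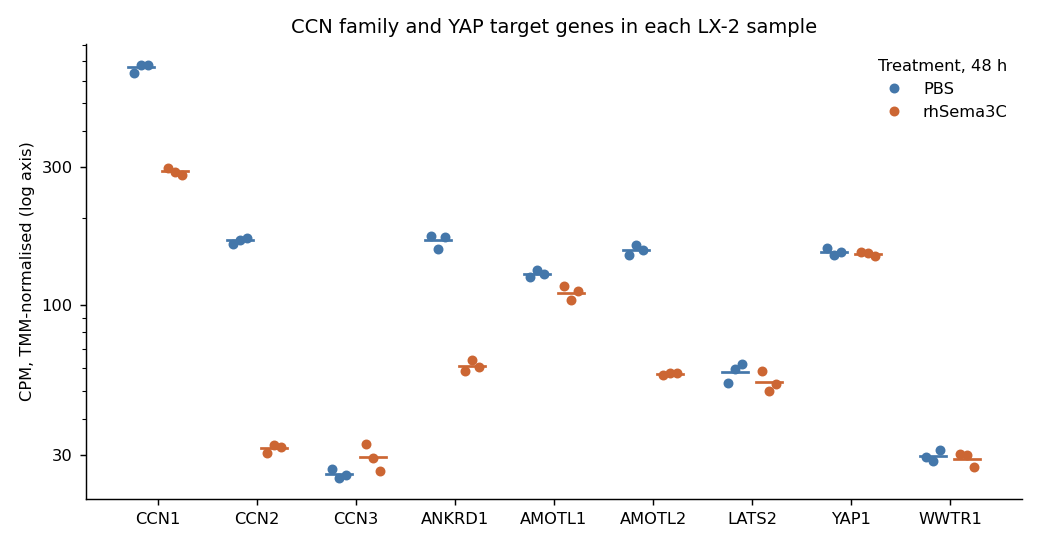
CPM of 9 genes in each of the 6 samples on a log axis (PBS in blue, rhSema3C in orange, bars for the mean of 3 samples). CCN1, CCN2, ANKRD1 and AMOTL2 show a wide gap, such as 666.9 against 290.4 for CCN1, while the points of CCN3, LATS2, YAP1 and WWTR1 overlap between the groups.

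The angiomotin genes differed from each other. AMOTL2 (ENSG00000114019, chr3:134355874-134374594) encodes an angiomotin family protein that binds YAP at junctions and is itself a YAP target. It had 148.8, 160.5 and 155.1 CPM with PBS and 57.0, 58.0 and 57.6 with rhSema3C. All rhSema3C samples lay within 1 CPM of each other and below the controls. The log2 fold change was -1.43 (standard error 0.04), or 2.69-fold lower.

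AMOTL1 (ENSG00000166025, chr11:94706431-94876748) encodes the paralogous protein, which also binds YAP. It had 124.9, 131.7 and 127.4 CPM with PBS and 115.6, 103.5 and 111.1 with rhSema3C. The groups did not overlap, but the gap was small, and the log2 fold change was -0.22 (standard error 0.05). This call was lost with library size as the only scaling, where the log2 fold change was -0.11, and with limma on log2(FPKM + 1), also -0.11, and the sign turned to 0.01 with TPM.

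LATS2 (ENSG00000150457, chr13:20973036-21061586) encodes a kinase that phosphorylates YAP and TAZ and is induced by them as a feedback. It had 53.6, 59.6 and 62.1 CPM with PBS and 58.6, 50.1 and 53.1 with rhSema3C. The groups overlapped, with a log2 fold change of -0.11 (standard error 0.07) that did not pass.

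The coactivators themselves were at nearly the same level in both groups. YAP1 (ENSG00000137693, chr11:102110447-102233424) had 157.1, 148.9 and 152.2 CPM with PBS and 152.1, 151.4 and 147.7 with rhSema3C. Its log2 fold change was -0.02 (standard error 0.04). WWTR1 (ENSG00000018408, chr3:149517235-149736714) had 29.6, 28.6 and 31.3 CPM with PBS and 30.3, 29.9 and 27.2 with rhSema3C, a log2 fold change of -0.03 (standard error 0.07). For both genes the samples of the groups were interleaved and neither passed the threshold. On the other strand, YAP1 overlaps an unnamed gene with at most 159 counts and WWTR1 overlaps WWTR1-AS1 with at most 68. RNA levels do not show the phosphorylation or the location of the proteins, through which the Hippo pathway acts on YAP and TAZ.

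With edgeR and an adjusted p of 0.05 over all genes, 5 of the 9 genes tested were lower with rhSema3C (CCN1, CCN2, ANKRD1, AMOTL2 and AMOTL1), 0 were higher and 4 were not called. Among all 14178 genes tested, 30.6% were lower and 31.7% higher. At an unadjusted p of 0.05, 1 of the 9 was higher, CCN3, which limma on log2(FPKM + 1) also called, while DESeq2 called 0 higher. Among all genes, 2.06% were lower at an adjusted p of 0.05 and by more than 2-fold, as were 4 of the 9 here. The groups did not overlap for 5 of the 9, against 67.8% of all genes. Since the genes were chosen with these samples known, nothing is read from these counts. With library size alone as the scaling, 62.2% of the calls over all genes were rises instead of 50.9%, and with TPM 74.1%.

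Beside the gap between the groups, the spread within them was small for CCN2, AMOTL2, CCN1 and ANKRD1. The standard deviation of log2 CPM within groups was 0.04 for CCN2 and AMOTL2, 0.05 for CCN1, 0.07 for ANKRD1 and 0.03 for YAP1. It was widest for CCN3 and LATS2, at 0.11 in each. The genes were chosen with these samples known, so the multiples that follow are a description and not a test. The absolute log2 fold change was 61.8 times the spread within groups for CCN2, 36.2 times for AMOTL2, 25.7 times for CCN1 and 19.6 times for ANKRD1. It was 0.715 times that spread for YAP1 and 0.46 times for WWTR1.

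Ratios of FPKM within a sample do not depend on how the samples are scaled. CCN2 stood at 2.80, 3.05 and 3.03 times YAP1 in the PBS samples and at 0.543, 0.577 and 0.584 times YAP1 in the rhSema3C samples. CCN2 was thus above YAP1 in every PBS sample and below YAP1 in every rhSema3C sample. The ratio of CCN1 to YAP1 was 7.46 ± 0.459 with PBS and 3.30 ± 0.0479 with rhSema3C, and that of ANKRD1 to YAP1 was 3.85 ± 0.136 and 1.44 ± 0.0706 (SD, n = 3 per group). The ratio of AMOTL2 to AMOTL1 was 2.03 ± 0.0264 with PBS and 0.878 ± 0.0565 with rhSema3C, so the more abundant angiomotin gene of the pair was AMOTL2 in the controls and AMOTL1 after treatment. For the CCN genes, the ratio of CCN1 to CCN2 was 2.52 ± 0.0391 with PBS and 5.81 ± 0.316 with rhSema3C. The ratio of YAP1 to WWTR1 overlapped between the groups, at 6.79 ± 0.303 and 6.85 ± 0.29.

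In FPKM, CCN1 was the most abundant of the 10 genes with PBS, at 170.0 ± 6.07, followed by ANKRD1 at 88.0 ± 5.30 and CCN2 at 67.4 ± 1.75 (SD, n = 3). AMOTL2 and YAP1 came next at 24.4 ± 0.832 and 22.8 ± 0.706, and their PBS samples overlapped. AMOTL1 followed at 12.03 ± 0.268. LATS2 at 9.81 ± 0.742 and CCN3 at 9.30 ± 0.397 also overlapped, and WWTR1 had 3.36 ± 0.171. With rhSema3C, CCN1 and ANKRD1 kept the first positions at 79.5 ± 1.92 and 34.6 ± 1.67. YAP1 was then above CCN2, at 24.1 ± 0.32 against 13.7 ± 0.431 FPKM. CCN3 and AMOTL1 overlapped at 11.4 ± 1.21 and 11.1 ± 0.611, as did AMOTL2 and LATS2 at 9.73 ± 0.0948 and 9.73 ± 0.758.

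**Figure D3:**
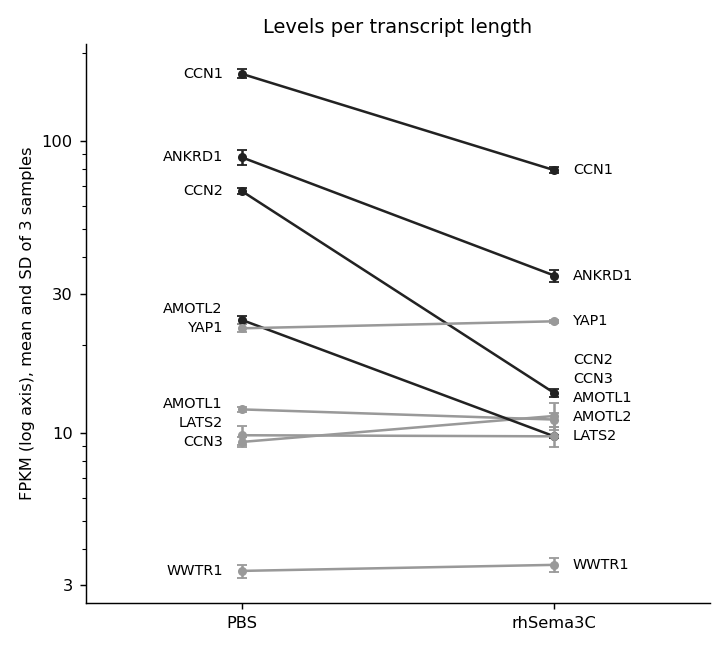
Mean FPKM with SD of 3 samples in each group for 9 genes on a log axis, with black lines for the genes that were more than 2-fold lower with rhSema3C and grey lines for the others. CCN2 crosses YAP1, from 67.4 FPKM to 13.7 while YAP1 goes from 22.8 to 24.1.

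The zero point of a fold change depends on the scaling, and the median over all genes moved from 0.02 on the log2 scale with TMM to 0.13 with library size alone and 0.23 with TPM. CCN2 stayed between -2.42 and -2.15 over 15 alternative settings, ANKRD1 between -1.49 and -1.21, AMOTL2 between -1.46 and -1.18 and CCN1 between -1.23 and -0.97. All 4 were called lower in each of these settings. YAP1 moved to 0.08 with library size alone and to 0.20 with TPM, where it was called higher, and WWTR1 moved to 0.07 and 0.18. Relative to the median of all genes in the same fit, however, YAP1 lay between -0.05 and -0.02 in 5 scalings and WWTR1 between -0.06 and -0.04. The corresponding range for CCN2 was -2.43 to -2.31.

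**Figure D4:**
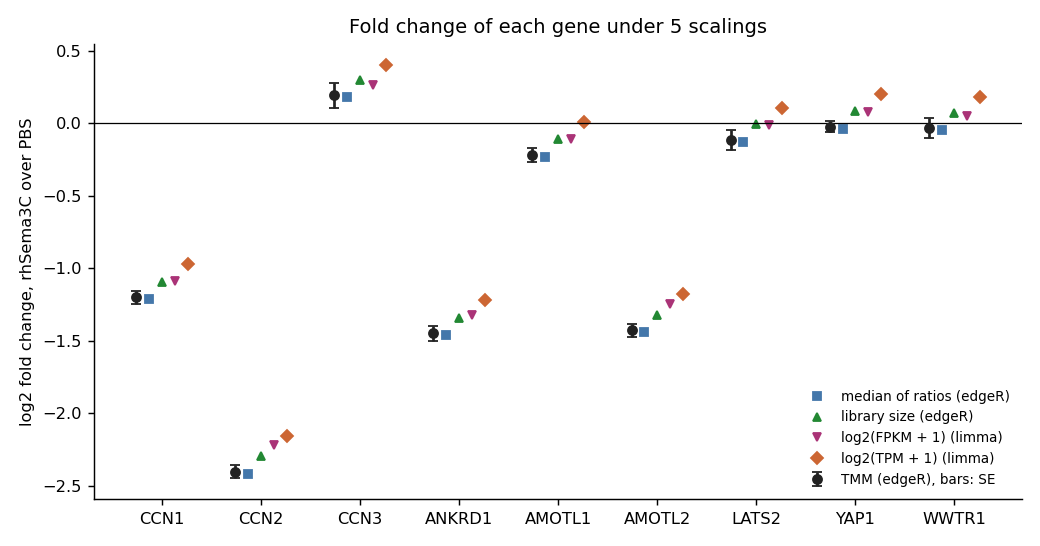
Log2 fold change of rhSema3C over PBS for 9 genes with TMM (black, with standard error) and with 4 other scalings or units. The symbols of a gene shift upward together with library size and TPM, which takes YAP1 from -0.02 to 0.20 but leaves CCN1, CCN2, ANKRD1 and AMOTL2 below -0.9.

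A list of 17 other genes of a common YAP and TAZ signature, taken from general knowledge, was then examined, and 16 of them passed the filter, RBMS3 being the exception. This list and those that follow were chosen with earlier results of these data known. Their counts, medians and p-values are thus a description and lend no separate support. By the same edgeR threshold, 10 were lower with rhSema3C, 1 was higher and 5 were not called, where 30.6% of all genes tested were lower and 31.7% higher. Their median log2 fold change was -0.31, against 0.02 over all genes tested. F3, which encodes tissue factor, the starter of coagulation, fell most. It had 181.2 ± 1.91 CPM with PBS and 54.9 ± 2.67 with rhSema3C (SD, n = 3 per group). This was -1.72 on the log2 scale (edgeR, adjusted p = 6.4e-10). TGFB2, which encodes a TGF-β ligand, fell by 1.01 on the log2 scale (edgeR, adjusted p = 8.2e-06). CRIM1, a transmembrane regulator of bone morphogenetic proteins, fell by 0.94, and the secreted factor gene FJX1 by 0.72. The receptor tyrosine kinase gene AXL fell by 0.57. CRIM1 overlaps FEZ2 on the other strand, which had up to 6425 counts. GADD45A, a stress-induced gene of growth arrest, rose by 0.63 on the log2 scale (edgeR, adjusted p = 5.7e-07). With library size alone, 5 of the 16 were higher, and with TPM 5 were higher and 6 lower. Of the 12 genes of this list with a promoter window, 5 held the letters GGAATG in any of their windows, where 14.0% of all single windows did.

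Among 25 genes of the Hippo pathway and its TEAD partners, 11 were lower with rhSema3C, 11 were higher and 3 were not called, and the median log2 fold change was 0.04. Over all genes tested, 30.6% were lower and 31.7% higher. Of the kinases, their scaffold and their cofactors, those that passed were higher, with TAOK2 as the exception. STK4, which encodes the kinase MST1, was not called. STK3, which encodes the kinase MST2, rose by 0.51 on the log2 scale (edgeR, adjusted p = 0.00042) and LATS1 by 0.35. SAV1, the scaffold of the MST kinases, rose by 0.32, and the LATS cofactors MOB1B and MOB1A by 0.27 and 0.15. SAV1 overlaps ATL1 on the other strand, with up to 980 counts. The call of MOB1B was lost in 3 of the 6 fits that left out 1 sample, without PBS replicate 3 (log2 fold change 0.23) and without rhSema3C replicates 2 (0.22) and 3 (0.24). With no filter on low genes, the calls of both MOB1A and MOB1B were lost, at log2 fold changes of 0.13 and 0.26. The giant protocadherin gene FAT4 rose by 0.47 and WWC2 by 0.43, whereas DCHS1, the other protocadherin gene of the list, fell by 0.35.

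TAOK2, a kinase that acts on the MST kinases, fell by 0.61, whereas its paralogs TAOK1 and TAOK3 rose by 0.23 and 0.27, and MAP4K4, a kinase of LATS, rose by 0.15. TAOK3 overlaps the pseudogene RPS2P5 on the other strand, which had up to 14543 counts. NF2, which encodes merlin, fell by 0.56 and WWC1, which encodes KIBRA, by 0.43. AMOT, the third angiomotin gene, fell by 0.59. Among genes that favour YAP, AJUBA, a LIM protein that inhibits LATS, fell most of the 25, and its means were 171.2 ± 5.78 CPM with PBS and 93.3 ± 3.72 with rhSema3C (SD, n = 3 per group). This was -0.88 on the log2 scale (edgeR, adjusted p = 4.9e-08). LIMD1, a related LIM protein, fell by 0.34.

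The TEAD genes moved in different directions. TEAD4 fell by 0.66 on the log2 scale (edgeR, adjusted p = 4.4e-06), TEAD3 by 0.43 and TEAD2 by 0.33, whereas TEAD1 rose by 0.26. VGLL3, a cofactor that binds TEAD in place of YAP, fell by 0.76. In FPKM with PBS, TEAD4 was the most abundant of the TEAD genes at 28.0 ± 1.07 and TEAD3 followed at 20.4 ± 1.02, while TEAD2 had 8.80 ± 0.66 and TEAD1 had 8.34 ± 0.534 (SD, n = 3). With TPM, the calls of TEAD2, AMOT and LIMD1 were lost, at log2 fold changes of -0.10, -0.26 and -0.11. Of 19 genes of the list with a promoter window, 3 (15.8%) held the letters GGAATG in any of their windows, where 14.0% of all single windows did. In the KEGG Hippo signaling pathway as annotated in the deposited table, 105 genes other than the 10 were tested. Of these, 32 were higher and 39 lower, where 31.7% and 30.6% of all genes tested were. Their median log2 fold change was 0.0017, against 0.02 over all genes tested. The 105 include genes already counted in the lists above.

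The receptors to which CCN proteins bind were represented by 8 genes, of which 3 were lower with rhSema3C, 2 were higher and 3 were not called, near the 30.6% and 31.7% of all genes tested. The integrin genes ITGB5, ITGB3 and ITGA5 fell by 0.54, 0.51 and 0.28 on the log2 scale (edgeR, adjusted p = 2.9e-06, 2e-05 and 0.00018). The call of ITGA5 was lost with TPM, at -0.05. ITGAV, whose product pairs with both of these β subunits, rose by 0.31, and the Wnt coreceptor gene LRP6 by 0.36. The median of the list was -0.07, and its sign turned with library size alone (0.04) and TPM (0.16).

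Last, the genes whose profiles over the 6 samples were closest to those of CCN1, CCN2 and ANKRD1 were sought among 11664 genes, by the root mean square distance between centred log2 CPM values. Because the samples form 2 groups, likeness mostly means a similar difference between the groups, and the values are a description. Closest to CCN2 were ACTG2, a smooth muscle actin, at a distance of 0.132, the growth factor gene FGF1 at 0.134 and TAGLN, the actin-binding protein transgelin, at 0.178. ACTG2 had 66.5 ± 4.39 CPM with PBS and 10.6 ± 0.593 with rhSema3C, and FGF1 had 38.0 ± 2.51 and 6.49 ± 0.922 (SD, n = 3 per group). Closest to ANKRD1 were the histone gene H4C8 at 0.0512, ESM1, a proteoglycan best known from endothelial cells, at 0.058 and the myosin light chain gene MYL9 at 0.0758. Closest to CCN1 were the histone gene H2BC12 at 0.0384, the matrix metalloproteinase gene MMP2 at 0.0452 and AMIGO2, an adhesion protein, at 0.0455. MMP2 had 66.0 ± 2.27 CPM with PBS and 30.01 ± 0.865 with rhSema3C. H4C8, H2BC12 and ACTG2 have near-identical paralogs, so their counts depend on how shared reads were divided.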

How the data were processed

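For each gene, the authors deposited raw counts, which are whole numbers, and FPKM values, which they scaled to length and depth. For their own comparison of the groups the authors used Cufflinks and cuffmerge. The aligner, counter, strand setting and genome build are not given in the sources used here, and the gene coordinates lie on GRCh38. Groups came from the sample titles.

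The 14178 genes whose mean FPKM reached 0.5 were compared by edgeR's quasi-likelihood test with TMM factors, and p-values were adjusted over all of them by the Benjamini-Hochberg method. The test was also run on simulated counts in which few genes changed, equally in both directions. Such a simulation cannot check the scaling where many genes differ, as they do here. The members, lists and tests were chosen with earlier results of these data known. Of each list, the 5 largest called changes were named, and other list genes were named where their role is described, some of them picked after their values were seen. One result that this rule would name is not reported here. Of the nearest profiles, 3 were named for each of CCN1, CCN2 and ANKRD1, among genes of mean FPKM 1 or more. The alternatives were median-of-ratios and library-size scaling, no filter or one at 5 FPKM, DESeq2, limma on log2(FPKM + 1), log2(FPKM + 0.1) and log2(TPM + 1), a block for the replicate number, and leaving out single samples. Software was R (4.3.3) with edgeR (4.0.16), DESeq2 (1.42.0) and limma (3.58.1), and Python with matplotlib (3.10.9).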

Additional observations from a re-analysis of the deposited data

How the results depend on the processing

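The counts of called genes, 4490 higher and 4339 lower, moved with the scaling, the filter and the unit. With library size alone, 5641 were higher and 3433 lower. With the filter at 5 FPKM, which left 6971 genes, 2603 were higher and 2621 lower, and with limma on TPM, which changes the test as well, 6934 were higher and 2428 lower. Of the 9 genes of the pathway tested, 1 was higher with library size alone, with the filter at 5 FPKM and with limma on log2(FPKM + 1) or log2(FPKM + 0.1), 2 with TPM, and between 0 and 1 with each sample left out. Of the other YAP signature genes, 5 were higher with library size alone, 3 with the filter at 5 FPKM, 4 with either limma fit on FPKM and 5 with TPM, and 6 were lower with the filter at 5 FPKM (11 genes tested) and with TPM. Of the Hippo genes, 7 were higher and 7 lower with the filter at 5 FPKM (15 tested), and 7 were lower with TPM. Of the receptor genes, 5 were higher with TPM.

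Signs turned as follows. The log2 fold change was 0.0078 for AMOTL1 and 0.11 for LATS2 with TPM. YAP1 was at 0.085 with library size alone, 0.079 with the filter at 5 FPKM, 0.077 and 0.080 with limma on log2(FPKM + 1) and log2(FPKM + 0.1), and 0.20 with TPM. WWTR1 was at 0.074 with library size alone, 0.053 and 0.067 with the limma fits and 0.18 with TPM, and from -0.064 to 0.013 with each sample left out. The median of the Hippo genes was -0.0028 with the filter at 5 FPKM. The median of the receptor genes was 0.041 with library size alone, 0.035 with the filter at 5 FPKM, 0.035 and 0.036 with the limma fits on FPKM and 0.16 with TPM. The median over all genes moved as well, to 0.13 with library size alone and 0.23 with TPM, and the cause was not tested.

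The values showed no pairing of samples by replicate number. Deviations from the group means correlated at -0.0923, -0.084 and -0.0366 between samples of the same number, and no sample correlated best with its own number. The labels do not say whether samples of the same number were set up together, and these values cannot settle it. A replicate block gave 4221 genes higher and 4120 lower and changed no call among the genes of the pathway. CCN4, CCN5 and CCN6 had at most 48 counts in any sample, and with no filter none of the 3 was called.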
